A study of Homo sapiens with 6 samples.

Results

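The S100 genes encode small calcium-binding proteins, and 10 of them were followed through 6 microarrays of human uveal melanoma cells: S100A1, S100A2, S100A3, S100A4, S100A6, S100A10, S100A11, S100A13, S100A16 and S100B. They were taken by gene symbol from 18417 named genes, and each had 1 probe set. These 10 were chosen with their values on these arrays in view, namely their levels, the differences between lines grown alone and the changes in co-culture, so their values are given as a description without a test. The arrays came from 3 established lines of uveal melanoma, a tumour of the eye's pigment cells: Mel 270, Mel 290 and 92.1 were each grown alone and each grown with activated T cells, with 1 array per line and condition. The T cells came from the blood of healthy volunteers, had been activated with beads that engage CD3 and CD28, and sat in a porous insert above the melanoma cells, so that soluble factors could pass. Per the labels, wells received 80000 cells of the 92.1 line and 100000 of either Mel line. The cells were then kept for 64 h in the serum-free medium X-VIVO 15. No line had repeat cultures, and the labels do not say whether beads were added to the cells grown alone.

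S100 proteins are built on a pair of EF-hand motifs, the helix-loop-helix fold that binds calcium, and most act as dimers. Calcium binding opens a surface through which they engage other proteins, among them annexins, cytoskeletal proteins and p53. Cells also release several of them, and outside the cell they can act on receptors such as RAGE (encoded by AGER) and TLR4. S100B is known as a tissue and serum marker of melanocytic tumours, because melanocytes and glia make it.

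The labelled cell type was checked against 8 melanocyte markers, 7 of which had a probe set of 1 gene symbol. All 7 lay at or above the filter level, a log2 value of 5.80 that marks the 25th percentile of probe sets, in 92.1 and Mel 270 grown alone, but 4 did in Mel 290. There the pigment genes MLANA, TYR and TYRP1 stood at 4.92, 4.79 and 5.19, so these markers of the labelled cell type were near background in Mel 290. In limma, a linear model fitted over all genes, all 7 were lower in Mel 290 than in the mean of the other lines, with adjusted p from 3.29e-04 for TYRP1 to 0.029 for SLC45A2. For SLC45A2 this rested on 92.1, at 10.02 grown alone, since Mel 270 stood at 6.56 and Mel 290 at 6.67. In the same comparison 14.9% of all 13813 tested genes were called lower. Without repeat cultures, the p-values of line differences do not measure the spread between such cultures. Genes known to respond to T cell cytokines served as a check of the cultures. CXCL10, a T cell attractant induced by interferon, rose by 9.11 ± 0.83 (SD, n = 3 lines) and IDO1, which degrades tryptophan, by 7.51 ± 0.55, with limma adjusted p of 0.0034 and 0.0029. Both lay below the filter level in all lines alone, and with low values raised the increases were 7.03 and 5.77. CD274, which encodes PD-L1, rose by 4.97 ± 0.59 (adjusted p = 0.0062). It lay below the filter level in 92.1 and Mel 270 alone, and with low values raised the increase was 4.39. T cell markers were near background. Of 8 markers 1 to 2 reached the filter level in the lines alone and 1, CD8A, in each co-culture. Their summed log2 levels ran from 40.8 to 42.6 alone and from 40.9 to 42.3 in co-culture, and the defining CD3D, CD3E and CD3G reached at most 5.70, 4.92 and 4.76 in co-culture.

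Of the 10 S100 genes, 9 lie on chromosome 1 and S100B lies alone on chromosome 21. In the RefSeq gene order of assembly GRCh38.p14 S100A10 and S100A11 are direct neighbours. S100A4, S100A3, S100A2 and S100A16 follow one another farther along, and S100A13 stands beside S100A1. RefSeq promoters were available for 9 of the 10, in 13 windows that cover the 250 bases before a transcription start. The windows of S100A1, S100A10 and S100A3 are shown because these genes carry the largest values among the chromosome 1 members: S100A10 and S100A1 the widest line differences, and S100A3 the largest positive change in co-culture. Capitals mark letters that match a searched motif, read 5' to 3' on the strand of the gene.
S100A1 (GRCh38.p14 chr1:153628184-153628433, plus strand): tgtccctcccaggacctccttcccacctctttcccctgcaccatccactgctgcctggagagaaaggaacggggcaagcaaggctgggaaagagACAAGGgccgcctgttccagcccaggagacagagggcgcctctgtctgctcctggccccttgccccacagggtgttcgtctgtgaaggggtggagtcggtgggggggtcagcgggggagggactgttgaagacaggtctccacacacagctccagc
S100A10 (GRCh38.p14 chr1:151993860-151994109, minus strand): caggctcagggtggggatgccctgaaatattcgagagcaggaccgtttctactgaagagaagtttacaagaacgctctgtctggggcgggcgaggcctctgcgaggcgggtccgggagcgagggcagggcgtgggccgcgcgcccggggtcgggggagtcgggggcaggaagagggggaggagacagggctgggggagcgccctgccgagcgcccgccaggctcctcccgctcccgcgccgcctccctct
S100A3 (GRCh38.p14 chr1:153549259-153549508, minus strand): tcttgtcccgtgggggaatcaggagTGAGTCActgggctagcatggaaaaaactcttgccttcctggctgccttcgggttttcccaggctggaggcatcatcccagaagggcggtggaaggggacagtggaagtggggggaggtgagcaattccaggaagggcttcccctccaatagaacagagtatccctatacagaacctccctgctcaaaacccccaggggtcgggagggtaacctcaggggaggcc

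The motifs searched on both strands were CATGTG (the core bound by MITF), CACGTG (an E-box), ACAANG (SOX factors), a core of the interferon-stimulated response element, TGANTCA (AP-1) and TATAAA. The S100A3 window has an AP-1 match whose first base is at position -225, counted from the start, and these letters are found in 6.57% of 35116 promoter windows of the same length. The window of S100A1 has a SOX match at -156 (30.9% of all windows). AP-1 letters are also found in a window of S100A2, at -52. SOX letters are also found in windows of S100A2, S100A6 and S100A16, at -217, -122 and -27. TATAAA (10.7%) is found in a window of S100A13, at -29, and in that of S100A4, at -31. No window of the 9 genes holds CACGTG (6.34%) or the response element core (3.02%). The S100A10 window holds none of the 6 motifs, has a GC content of 71.2% and has 24 CpG pairs, against medians of 58.0% and 11 over all windows, whereas the S100A1 window has 6 CpG pairs and that of S100A3 has 4. CATGTG (9.42% of all windows) is found in 1 of 3 windows of S100A13, at -73, and 1 of 2 windows of S100A16, at -231. A match describes the letters and shows no binding.

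S100B, the melanocytic and glial member, was at a clear level in Mel 270 only. Grown alone it stood at 9.07 in Mel 270, 4.71 in 92.1 and 4.67 in Mel 290, and in co-culture at 6.20, 4.76 and 4.69. The values of 92.1 and Mel 290 lay below the filter level in either culture, where signal is close to background, and they differed from each other by at most 0.07. Mel 270 was thus 20.5-fold above 92.1 and 21.1-fold above Mel 290 grown alone, or 9.65-fold above each with low values raised to the filter level. In co-culture the S100B level of Mel 270 was 2.86 lower on the log2 scale than alone (-2.86, 7.27-fold). Of all named genes, 1.15% had a change at least that large in any line. The fold between Mel 270 and 92.1 was 2.73 in co-culture, or 1.33 with low values raised. In 92.1 and Mel 290 the signal was too low to show a decrease.

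Melanocyte markers also had lower values in the co-culture of Mel 270. There 4 of the 7 measured markers were at least 2-fold lower than alone, beside 659 of all 18417 named genes. TYR, the rate-limiting enzyme of melanin synthesis, went from 11.72 to 9.63, and MITF, the melanocyte master regulator, from 11.03 to 8.93. MLANA went from 12.46 to 11.25 and SLC45A2 from 6.56 to 5.46, the last value below the filter level. The other markers were closer, with PMEL at 12.55 and 11.85 and TYRP1 at 13.05 and 12.66. SOX10, a neural crest factor, stood at 9.21 and 8.75. In 92.1, where S100B was near background, 2 of the 7 were at least 2-fold lower (412 of 18417 genes). In Mel 290 it was 1 of the 7 (362 of 18417 genes), SLC45A2, which went from 6.67 to 5.27, the last value below the filter level. In limma over the lines 0 of the 7 were called in co-culture. The summed log2 levels of the 7 markers ran from 43.5 to 79.3 over the lines alone and from 41.4 to 73.7 in co-culture. The part of the melanocyte markers in the S100B value was not tested, and in such a bulk sample fewer cells of a type and less RNA per cell cannot be told apart.

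S100A1, known as a regulator of calcium handling in muscle, was highest in Mel 270 and lowest in Mel 290. Grown alone it stood at 8.86 in Mel 270, 7.66 in 92.1 and 5.71 in Mel 290, a range of 3.15. In co-culture the values were 7.40, 6.97 and 6.28. The lines kept their order but drew closer, with a range of 1.12. S100A1 was 1.47 lower in co-culture in Mel 270 (-1.47, 2.77-fold), 0.69 lower in 92.1 (-0.69) and 0.57 higher in Mel 290. The mean change was -0.53 ± 1.03 (SD, n = 3 lines), so the spread between lines was larger than the mean. Mel 290 grown alone lay below the filter level, and with low values raised its change was 0.48.

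S100A13 lies next to S100A1 on the opposite strand. It helps export FGF1 and interleukin-1 alpha, which lack a secretion signal. The nearest RefSeq start of S100A13 is 929 bases from that of S100A1 and its farthest start lies 5927 bases beyond it, so the longest S100A13 transcript spans the S100A1 start. S100A13 was also highest in Mel 270, at 8.44 alone and 8.22 in co-culture. It stood at 7.08 and 7.38 in 92.1 and at 7.18 and 7.75 in Mel 290. The change in co-culture was 0.22 ± 0.40 over the lines, with 0.30 in 92.1, -0.22 in Mel 270 and 0.57 in Mel 290. The neighbours S100A1 and S100A13 therefore had changes of opposite sign in 92.1 and of the same sign in Mel 270 and Mel 290.

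S100A10 had the widest line difference of the 10 genes. Its protein, also called p11, does not respond to calcium, pairs with annexin A2 and serves as a plasminogen receptor at the cell surface. Grown alone S100A10 stood at 11.78 in Mel 270, 8.04 in 92.1 and 4.90 in Mel 290, and in co-culture at 10.83, 7.32 and 5.04. The lines did not overlap across cultures, and the values of Mel 290 lay below the filter level. Mel 270 was 118-fold above Mel 290 grown alone, or 63.3-fold with low values raised, and 13.4-fold above 92.1. A range of 6.88 or more between lines grown alone was found in 0.0814% of named genes. Co-culture values were 0.95 lower in Mel 270 (-0.95) and 0.72 lower in 92.1 (-0.72), and Mel 290 differed by 0.14 (mean change -0.51 ± 0.57).

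**Figure D1:**
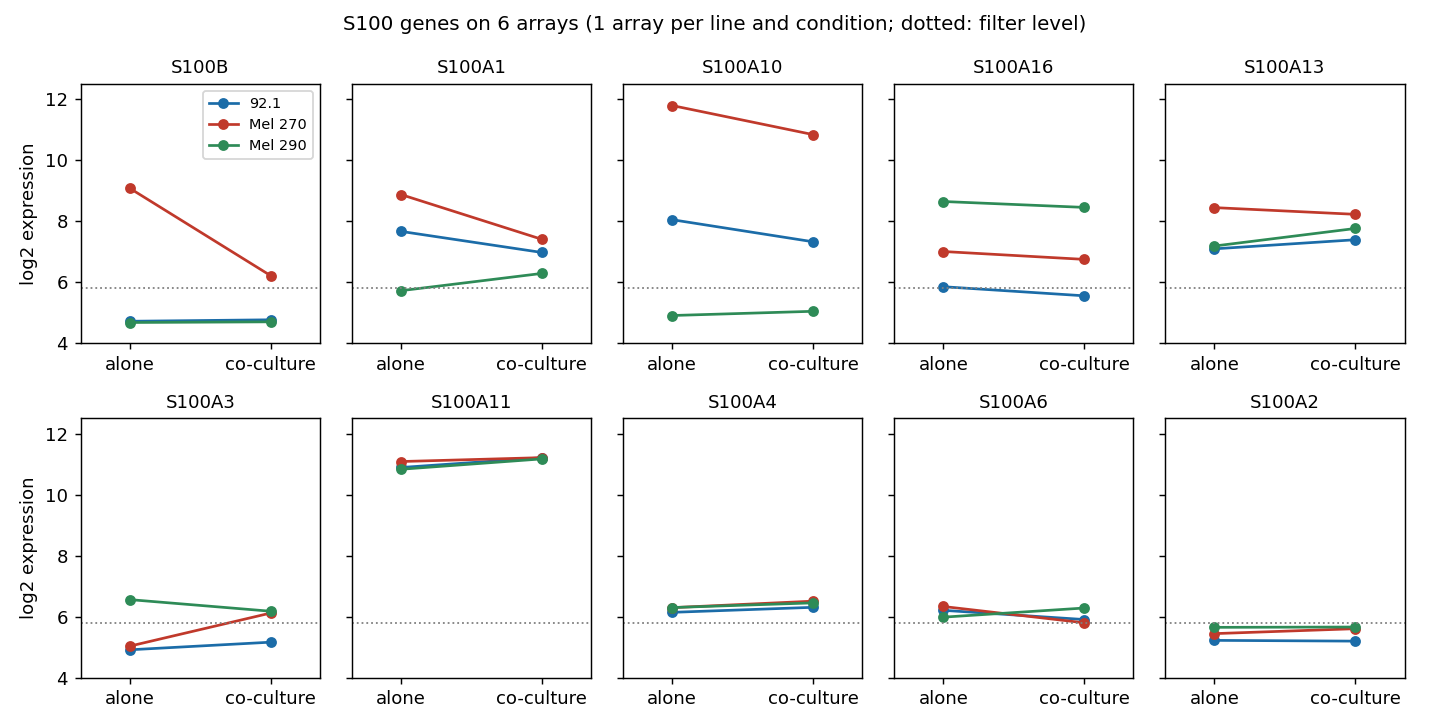
Log2 expression of the 10 S100 genes on each array, with 1 panel per gene, the culture on the x axis and a line joining the 2 arrays of each cell line; the dotted line is the filter level of 5.80. S100B lies above it in Mel 270 only (9.07 and 6.20), S100A10 spreads from 4.90 to 11.78, and the lines lie close together for S100A11, S100A4, S100A6 and S100A2.

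S100A16, a widely expressed member, had another order of lines. It was highest in Mel 290, at 8.64 alone and 8.44 in co-culture, next in Mel 270, at 7.0 and 6.74, and lowest in 92.1, at 5.84 and 5.54. Mel 290 was 6.93-fold above 92.1 alone and 7.45-fold in co-culture. The change in co-culture was similar in the 3 lines, at -0.30 in 92.1, -0.26 in Mel 270 and -0.19 in Mel 290 (mean -0.25 ± 0.05). With low values raised to the filter level the mean was -0.17, since the co-culture value of 92.1 lay below it. S100A16 and S100A10 thus had their highest values in different lines, Mel 290 and Mel 270.

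S100A3, a cysteine-rich protein of the hair cuticle, was at a level above the filter in Mel 290 grown alone and in the co-cultures of Mel 270 and Mel 290. It stood at 6.56 in Mel 290, 5.03 in Mel 270 and 4.91 in 92.1 grown alone, and at 6.18, 6.12 and 5.16 in co-culture. Mel 290 had been 2.88-fold above Mel 270 alone and was 1.04-fold above it in co-culture; with low values raised the first fold was 1.69. S100A3 was 1.08 higher in co-culture in Mel 270 (2.12-fold), 0.25 higher in 92.1 and 0.38 lower in Mel 290 (-0.38). The value of Mel 270 grown alone was below the filter level, and with low values raised the change was 0.32.

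S100A11, a partner of annexin A1, was the steadiest of the members with a strong signal. It stood at 10.89 in 92.1, 11.09 in Mel 270 and 10.83 in Mel 290 grown alone, and at 11.21, 11.21 and 11.17 in co-culture. All 3 co-culture values lay above all 3 values alone, with a mean change of 0.26 ± 0.12. The share of all genes separated in this way was not counted. Its largest change, 0.34, was small, since 58.2% of named genes had a change at least that large in any line. S100A11 adjoins S100A10 in the genome. Its range over the lines alone was 0.25, beside 6.88 for S100A10.

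S100A4, S100A6 and S100A2 varied little. S100A4, known as metastasin and a partner of non-muscle myosin, ran from 6.14 to 6.51 over the 6 arrays and was higher in co-culture in each line, by 0.16 in 92.1, 0.21 in Mel 270 and 0.15 in Mel 290 (mean 0.18 ± 0.03). S100A6, or calcyclin, ran from 5.80 to 6.33, with changes of -0.30, -0.53 and 0.30 in the same order. S100A2, known from keratinocytes as a p53 target, ran from 5.20 to 5.66, below the filter level on all 6 arrays. Signals this near the filter level limit what these probe sets could show.

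**Figure D2:**
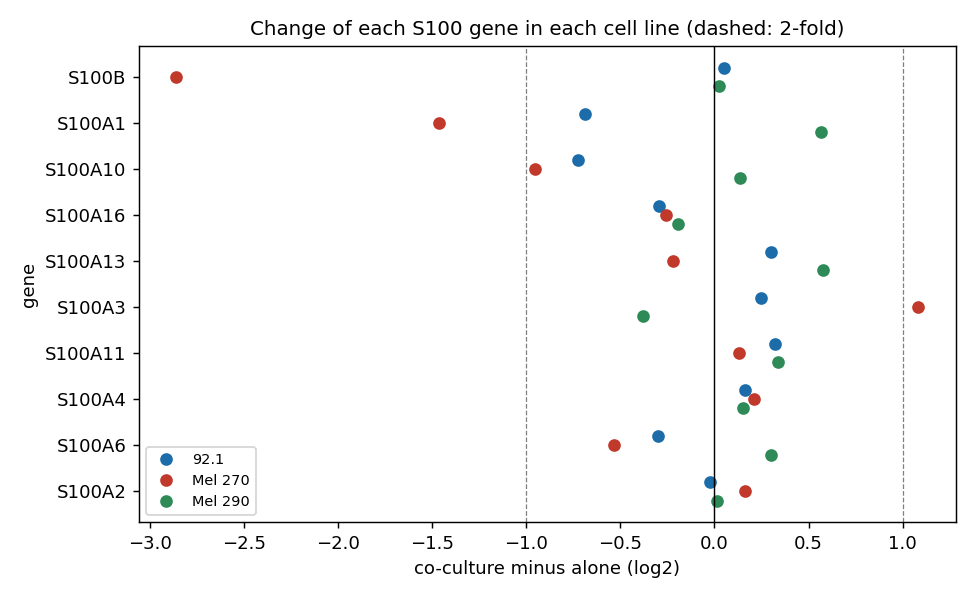
Co-culture minus alone on the log2 scale (x axis) for each of the 10 S100 genes (y axis), with 1 point per cell line and dashed lines at a 2-fold difference. S100B and S100A1 in Mel 270 lie to the left of -1 (-2.86 and -1.47), S100A3 in Mel 270 lies just to the right of 1 (1.08), and all points of 92.1 and Mel 290 lie between the dashed lines.

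Co-culture was compared with growth alone over all genes in limma, with cell line as a block. Of the 10 S100 genes 7 passed the filter on low values, and S100A2, S100A3 and S100B did not, although S100B was clearly measured in Mel 270. That fit is used for other genes, and the members are described by their differences. Past a 2-fold difference, with no filter, the count was 0 of the 10 in 92.1 (5.28% of 18417 genes), 3 of 10 in Mel 270 (7.98%) and 0 of 10 in Mel 290 (3.87%). In Mel 270 these were S100B, S100A1 and S100A3, of which 2, S100B and S100A1, stayed past it with low values raised. The median change of the 10 was 0.01 in 92.1, -0.24 in Mel 270 and 0.15 in Mel 290, beside -0.07, -0.07 and 0.04 over all named genes. The change had the same sign in all 3 lines for 3 of the 10, S100A4, S100A11 and S100A16, beside 37.3% of all named genes. Since these contrasts helped to choose the members, nothing is read from their counts.

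Lines grown alone were compared in pairs. Past a 2-fold difference 5 of 10 separated Mel 270 from 92.1 (8.48% of 18417 genes), and all 5 were higher in Mel 270 (3.08% of all genes): S100B, S100A10, S100A13, S100A1 and S100A16. There were 4 of 10 between Mel 290 and 92.1 (15.4%), with S100A16 and S100A3 higher and S100A10 and S100A1 lower in Mel 290. Between Mel 290 and Mel 270 there were 6 of 10 (14.8%), with S100A16 and S100A3 higher and S100A10, S100B, S100A1 and S100A13 lower in Mel 290. These comparisons share arrays, so they are not independent of each other. With low values raised to the filter level the counts were 5, 3 and 5 of 10 in the same order, and S100A3, 3.13-fold higher in Mel 290 than in 92.1 as measured, was 1.69-fold higher. The median range over the lines alone was 1.50 for the 10 genes and 0.46 over all named genes, and the median of the largest change in any line was 0.55 and 0.39. These values too are a description of genes chosen on them.

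**Figure D3:**
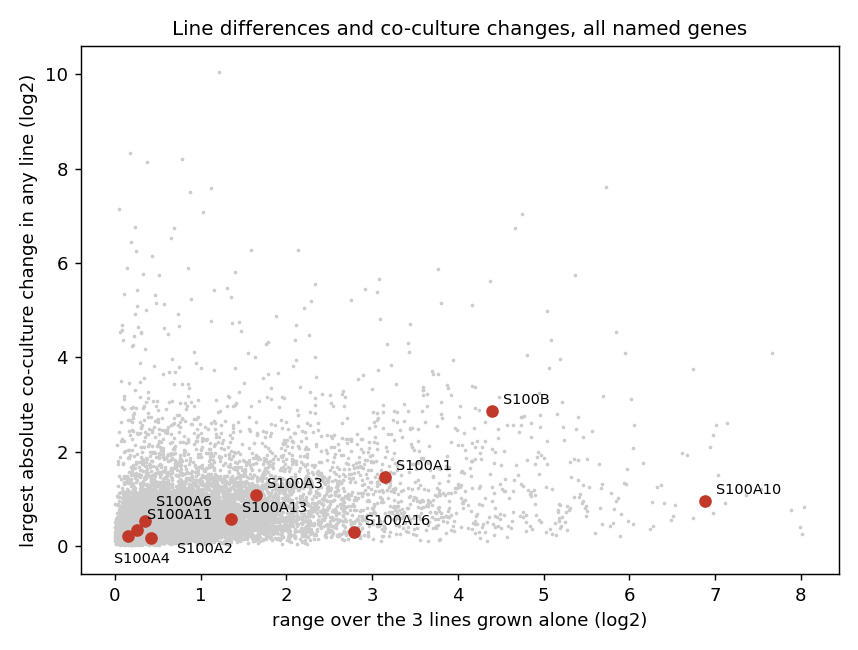
Each of 18417 named genes (grey) and the 10 S100 genes (red) by the range of its log2 values over the 3 lines grown alone (x axis) and its largest absolute co-culture change in any line (y axis, log2). S100A10 lies far to the right (6.88) with a change of 0.95, S100B lies at 4.40 and 2.86, and S100A2, S100A4, S100A6 and S100A11 lie in the dense corner.

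For the 4 members that span at least 2 on the log2 scale, the genes with the most similar 6 values were sought among the 13813 tested genes. Each gene was first centred on its mean. Genes that did not pass the filter were not searched, although S100B itself did not pass it. Likeness was the root mean square difference over the 6 arrays. S100B was closest to RXRG, a retinoid receptor gene (0.23), KRTAP19-1 (0.26) and GSTA3 (0.40). RXRG stood at 9.95 alone and 6.72 in co-culture in Mel 270, and at most at 5.11 elsewhere. RXRG, KRTAP19-1 and GSTA3 all lay below the filter level outside Mel 270, so they passed the filter through that line. S100A1 was closest to WDR91 (0.19), the Notch ligand gene DLL3 (0.19) and DNAI3 (0.19). S100A16 was closest to SEMA7A (0.24), LURAP1L (0.25) and EVC (0.25). S100A10 had no close match: PDLIM3 (0.80), SLC1A4 (0.85) and OCA2, a melanosome gene (0.90), came nearest, and PDLIM3 and SLC1A4 had higher values in the co-culture of 92.1 where S100A10 had a lower one. With 6 arrays of 3 lines such likeness rests chiefly on how the lines differ.

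**Figure D4:**
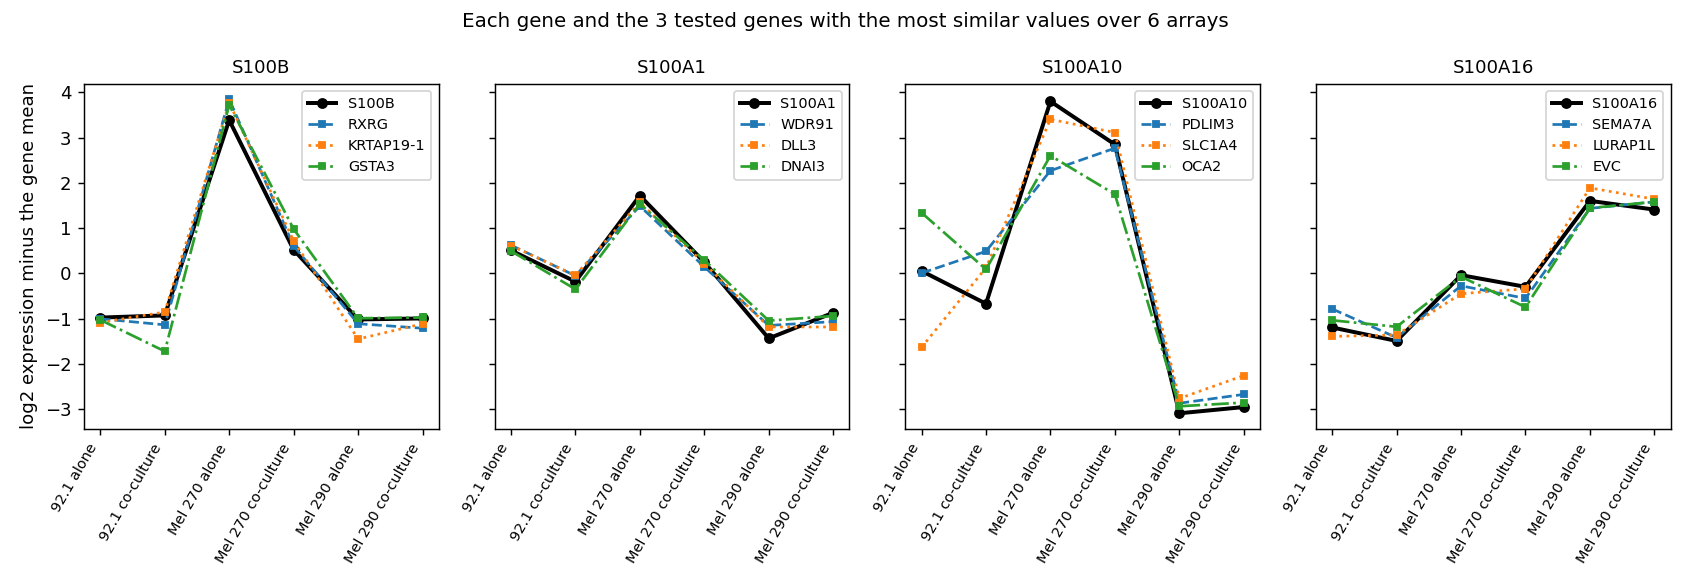
Log2 expression minus the mean of the gene (y axis) on the 6 arrays (x axis) for S100B, S100A1, S100A10 and S100A16 (black) and the 3 tested genes with the smallest root mean square difference from each (broken lines). The curves nearly coincide for S100A1 (0.19 for each of the 3) and part for S100A10 (0.80 to 0.90).

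The other S100 genes were mostly near background. Of 11, among them the S100A8 and S100A9 of myeloid cells and the S100A7 of inflamed skin, 3 passed the filter and 0 were called in co-culture or between lines. An unadjusted p under 0.05 was found for 0 of the 3 in co-culture. S100A9 had a mean change of -0.13 ± 0.31 (adjusted p = 0.73), S100A14 of -0.23 ± 0.29 (adjusted p = 0.51) and S100P of 0.17 ± 0.16 (adjusted p = 0.565). S100A8 ran from 4.12 to 4.66 and S100A12 from 4.38 to 4.72 over the 6 arrays, below the filter level. Monocyte and macrophage markers summed to 40.9 to 42.9 over 7 genes alone and 40.7 to 45.2 in co-culture, with 2 to 4 at or above the filter level in either culture. LYZ reached at most 3.76, and CD68 had the highest value of the list (11.70 in the co-culture of Mel 290).

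Partners and receptors of S100 proteins were followed through 27 genes, of which 26 were measured and 21 tested. In co-culture 0 of the 21 were called, beside 0.449% of all 13813 tested genes. An unadjusted p under 0.05 was found for 3, a share not counted over all genes. Nearest to the threshold was ANXA11, an annexin, lower by 0.80 on average (-0.80 ± 0.10, adjusted p = 0.075), and it was singled out after its value was seen. Between Mel 290 and the mean of the other lines 7 of 21 were called (26.2% of all tested genes), 4 higher and 3 lower, beside 11.3% and 14.9% of all. Since no line had repeat cultures, the SEs and p-values of line differences do not measure the spread between such cultures. ALCAM, a cell adhesion molecule, was higher by 4.20 ± 0.25 (SE, adjusted p = 0.0012), MYH9, the myosin bound by S100A4, by 1.45 ± 0.24 (adjusted p = 0.015), IQGAP1, a scaffold protein, by 0.78 ± 0.15 (adjusted p = 0.019) and PLAU, the urokinase gene, by 0.63 ± 0.13 (adjusted p = 0.025). MDM2, the p53 ligase (-1.03 ± 0.18, adjusted p = 0.016), ANXA11 (-0.81 ± 0.13, adjusted p = 0.013) and CACYBP, the calcyclin-binding protein (-0.75 ± 0.18, adjusted p = 0.036), were lower in Mel 290. Between 92.1 and Mel 270 1 of the 21 was called (8.05% of all tested genes). This was ALCAM, higher by 3.72 ± 0.29 in 92.1 (adjusted p = 0.0067), or by 2.52 (adjusted p = 0.018) with low values raised, since both its values in Mel 270 lay below the filter level. For the same reason the ALCAM difference of Mel 290 from the other lines was 3.60 with low values raised.

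ANXA2, the partner of S100A10, did not follow the large line difference of S100A10. It stood at 9.41 in 92.1, 9.18 in Mel 270 and 10.15 in Mel 290 grown alone, and at 9.42, 9.25 and 9.42 in co-culture. The line with the lowest S100A10 level, Mel 290, had the highest ANXA2 level alone, and the difference of 0.47 from the other lines did not pass in limma (adjusted p = 0.17). Close ANXA2 pseudogene copies make this probe set uncertain. ANXA1, the partner of S100A11, was 0.39 lower on average (-0.39 ± 0.84, adjusted p = 0.59), with 10.47 and 11.04 in 92.1, 12.17 and 11.21 in Mel 270, and 12.67 and 11.89 in Mel 290, alone and in co-culture. The abundant BSG (-0.26 ± 0.12), ANXA5 (-0.33 ± 0.22) and IQGAP1 (-0.10 ± 0.19) did not pass in co-culture. IL1A, a cargo of S100A13 that lay below the filter and was named after its values were seen, stood at 5.84 alone and 10.16 in co-culture in Mel 290, and at 4.05 and 4.42 in 92.1 and 4.36 and 4.54 in Mel 270. FGF1, another cargo, stood at 6.84 and 6.38 in Mel 290 and below the filter level in the other lines. AGER, the receptor RAGE, stood between 6.50 and 6.91 on the 6 arrays, and TLR4 stayed below the filter level.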

How the data were processed

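RNA of 6 cultures was measured on 6 arrays. The deposited values (1.49 to 13.9) are log2 signals, made per the submitters' processing notes in Affymetrix Expression Console 1.2.0.20. How background was corrected and how arrays were summarized and normalized is not given in sources used here. Array medians ran from 6.63 to 6.69, and no further normalization was applied. Precision is limited by the small number of arrays and, for low signals, by background.

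Of 33297 probe sets, 19460 had 1 gene symbol in the array annotation and 1754 had several; 12083 stay unnamed here. Symbols were updated through RefSeq gene IDs (19429 matched), which gave 18417 genes. Of several probe sets for a gene, that with the highest mean was kept. Genes were tested if that mean reached the 25th percentile of probe sets with 1 symbol (5.80), which left 13813. limma 3.58.1 in R 4.3.3 fitted cell line and culture, with 2 residual and 3.10 prior degrees of freedom, with Benjamini-Hochberg adjustment across the tested genes (threshold 0.05). The same lines in both groups pair the arrays. The p-values reflect how lines differ, since there were no repeat cultures, and an exact two-sided permutation test over 3 pairs cannot go below 0.25. The fit was also run on simulated data with equal noise for all genes and equal changes in all lines. These arrays differ from that setting, so the run is no check of the p-values given here.

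The 10 members, 11 further lists (other and fused-type S100 genes, partners, other EF-hand proteins, culture checks and markers of melanocytes, mesenchyme, epithelium, Schwann cells, T cells and monocytes) and the tests were chosen with earlier results of these data known. The rule was to name, of each list, the genes called and the 4 with the highest mean; other list genes named, such as partners, receptors and defining markers, were added with their values seen. A gene without a probe set of 1 symbol was not analysed here. Promoter sequences are from RefSeq, GRCh38.p14, without the 50 bases after each start. Alternatives were cyclic loess, other filters, the mean of a gene's probe sets, low values raised to the filter level, no cell line block, and leaving out each line.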

Additional observations from a re-analysis of the deposited data

Results flagged for a closer look

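Each of the following pairs of lines had co-culture changes of opposite sign that lay at least 1 apart on the log2 scale. With 1 array per line and condition none of these differences was tested. For S100B the change in Mel 270 minus that in Mel 290 was -2.88, and the change in 92.1 minus that in Mel 270 was 2.91, where the values of 92.1 and Mel 290 were near background and, after cyclic loess, Mel 290 had a change of -0.08 in place of 0.02. For S100A1 the change in Mel 270 minus that in Mel 290 was -2.03, and that in 92.1 minus that in Mel 290 was -1.26. Its value in Mel 290 grown alone lay below the filter level, and with low values raised the first difference was -1.95. For S100A3 the change in Mel 270 minus that in Mel 290 was 1.46, or 0.70 with low values raised, because Mel 270 grown alone lay below the filter level. For S100A10 the change in Mel 270 minus that in Mel 290 was -1.09, or -0.95 with low values raised, with Mel 290 below the filter level in both cultures. With low values raised the change of S100A10 in Mel 290 was 0, as were those of S100B in 92.1 and Mel 290. The pairs of S100A10 and S100B then no longer had opposite signs.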

How the results depend on the processing

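The number of genes called in co-culture was 62 as reported, 41 after cyclic loess and 18 with no replicate block, that is without the pairing by cell line, and 49 to 85 when each line was left out in turn. The number called between 92.1 and Mel 270 was 1112, and 728 with the filter at the median, which tests fewer genes. The other counts over all genes stayed within 1.5 times the reported ones under the alternatives run. After cyclic loess each change and line difference of the 10 S100 genes kept its direction, with exceptions in Mel 290. These were the changes of S100A2 (0.01, and -0.09 after cyclic loess) and S100B. The mean of a gene's probe sets could not alter the differences of the 10, because each had 1 probe set. Raising low values set some of these differences to 0 and turned the mean change of S100A3 over the lines from 0.32 to -0.02. Without Mel 270 that mean was -0.07, and that of S100B went from -0.93 to 0.04. The median change of all tested genes moved by less than 0.1 under every alternative. Of the named genes that are no members, CACYBP between Mel 290 and the other lines was not called with the mean of its probe sets (-0.52, adjusted p = 0.067), SLC45A2 there was not called with low values raised (-1.24, adjusted p = 0.079), VIM between 92.1 and Mel 270 was not called with the filter at the median (adjusted p = 0.0515), and CD274 in co-culture was not called without the block (adjusted p = 0.195). Low signal limits S100A2 on all arrays, S100A3 in 92.1 and in Mel 270 grown alone, and S100B in 92.1 and Mel 290. It also limits S100A10 in Mel 290, S100A1 in Mel 290 grown alone and S100A16 in the co-culture of 92.1.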

Other observations

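Other EF-hand proteins, which share the calcium-binding fold, were followed through 25 genes, 21 of them measured and 18 tested. In co-culture 0 of the 18 were called by limma (0.449% of all tested genes) and 6 had an unadjusted p under 0.05. Between Mel 290 and the mean of the other lines 5 of 18 were called, beside 26.2% of all tested genes. The calpain subunit genes CAPN2 (1.44 ± 0.13 SE, adjusted p = 0.0032) and CAPNS1 (0.62 ± 0.14, adjusted p = 0.032) were higher in Mel 290, as were HPCAL1, a neuronal calcium sensor (1.18 ± 0.18, adjusted p = 0.012), and the centrosomal CETN2 (0.85 ± 0.17, adjusted p = 0.023). LCP1, the actin-bundling plastin of leukocytes, was lower (-1.78 ± 0.28, adjusted p = 0.012). Between 92.1 and Mel 270 0 of the 18 were called (8.05% of all tested genes), and 5 had an unadjusted p under 0.05. The share of all genes under that unadjusted p was not counted, so nothing is read from the 6 and the 5. The members with the highest level, CALU, RCN1, CHP1 and SRI, had mean changes in co-culture of -0.12, 0.18, -0.80 and -0.28, none of which passed.

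The fused-type S100 genes of the skin barrier were near background, with 1 of 6 measured genes, CRNN, above the filter (mean change -0.05 ± 0.39, adjusted p = 0.925). Among epithelial markers KRT8 was higher in Mel 290 than in the other lines by 3.22 ± 0.23 (SE, adjusted p = 0.0018), 1 of 4 tested. Among 7 mesenchymal markers ZEB1 was higher in Mel 290 by 2.48 ± 0.29 (adjusted p = 0.0057), and 92.1 had a higher level of ZEB1 (2.82) and a lower one of VIM (-0.77) than Mel 270, with adjusted p of 0.017 and 0.047. Both ZEB1 values of Mel 270 lay below the filter level, and with low values raised the ZEB1 differences were 2.27 and 2.40. Mel 290 was above 92.1 in ZEB1 by 1.50 alone and by 0.64 in co-culture. Of the melanocyte markers SLC45A2 was higher in 92.1 than in Mel 270 (2.76 ± 0.36, adjusted p = 0.021). CD274 was higher in Mel 290 than in the other lines by 1.72 ± 0.26 (adjusted p = 0.011), or by 1.28 with low values raised. Of 3 tested Schwann and neural crest markers SOX10 (-1.86 ± 0.21, adjusted p = 0.0053) and ERBB3 (-1.82 ± 0.28, adjusted p = 0.012) were lower in Mel 290. NGFR (-0.06) was not called. Of 4 tested monocyte and macrophage markers CD68 (1.29 ± 0.27, adjusted p = 0.026) and CSF1R (0.86 ± 0.14, adjusted p = 0.013) were higher in Mel 290. CSF1R lay near the filter level in the other lines, and with low values raised its difference was 0.74. CD14 (0.21) and TYROBP (-0.03) were not called. Between Mel 290 and the other lines 11.3% of all tested genes were called higher and 14.9% lower, so nothing is read from these marker counts.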
